A study of Mus musculus with 60 samples.

Results

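The Nr4a genes Nr4a1 (Nur77), Nr4a2 (Nurr1) and Nr4a3 (Nor1) encode the 3 orphan nuclear receptors of the NR4A subfamily. They were found by gene symbol in each of 10 tables of hippocampal expression, and all 3 were present in every table, out of 13393 genes that all 10 tables hold. The series measured poly(A)-enriched RNA of wild type C57BL/6 mice at postnatal day 105 in 60 libraries, 5 for each of 12 groups. Whole, dorsal and ventral hippocampus were each sampled in mice left in the Homecage and in mice taken 45 minutes after Handling, Restraint or Swim. Labels do not say whether a dorsal and a ventral library of the same number come from 1 mouse, nor what each treatment consisted of. The deposited p-values compare groups of 5 libraries, by a test that no source used here names.

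NR4A proteins are nuclear receptors without a known physiological ligand, and their activity follows largely from how much of them is made. Their genes are immediate early genes: calcium and cAMP signals act through the transcription factor CREB, and through MEF2 and SRF, to switch them on within minutes of neuronal firing. The proteins bind DNA as monomers at the NBRE element or as dimers, Nr4a1 and Nr4a2 also with the retinoid X receptor RXR. In the mouse hippocampus the subfamily is known for its part in long-term memory, and Nr4a2 is known besides as a factor of midbrain dopamine neurons and as a marker of claustrum and deep cortical cells.

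Because the 3 genes are known CREB targets, the sequence just upstream of each is shown first. Each window runs from 250 bases before to 50 bases after the RefSeq gene start on build GRCm38.p6. It is written 5′ to 3′ on the strand of the gene. Capitals mark the core of the cAMP response element (CRE), TGACG on either strand. The Nr4a1 window is chr15:101266596-101266895 on the plus strand, the Nr4a2 window chr2:57123954-57124253 on the minus strand, and the Nr4a3 window chr4:48045055-48045354 on the plus strand.
Nr4a1: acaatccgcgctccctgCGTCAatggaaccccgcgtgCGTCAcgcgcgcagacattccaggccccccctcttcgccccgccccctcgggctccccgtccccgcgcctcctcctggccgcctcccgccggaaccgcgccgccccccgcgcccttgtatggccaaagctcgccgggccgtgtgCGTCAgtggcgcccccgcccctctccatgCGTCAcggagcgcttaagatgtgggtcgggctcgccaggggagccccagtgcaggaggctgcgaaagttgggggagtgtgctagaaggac
Nr4a2: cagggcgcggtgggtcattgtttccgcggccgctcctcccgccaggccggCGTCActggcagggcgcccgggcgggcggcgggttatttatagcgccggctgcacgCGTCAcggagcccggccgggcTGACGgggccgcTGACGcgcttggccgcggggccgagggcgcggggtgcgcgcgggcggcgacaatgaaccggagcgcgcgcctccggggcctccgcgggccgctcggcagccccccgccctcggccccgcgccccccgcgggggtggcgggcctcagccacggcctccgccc
Nr4a3: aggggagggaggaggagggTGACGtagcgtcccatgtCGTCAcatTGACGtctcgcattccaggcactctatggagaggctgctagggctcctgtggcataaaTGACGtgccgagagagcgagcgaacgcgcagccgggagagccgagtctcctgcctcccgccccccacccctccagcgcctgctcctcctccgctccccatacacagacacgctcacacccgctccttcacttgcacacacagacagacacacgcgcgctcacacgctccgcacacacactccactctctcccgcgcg

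Each of the 3 windows held 4 CRE cores. They begin at -233, -213, -69 and -40 from the start of Nr4a1, at -200, -144, -123 and -111 in Nr4a2, and at -231, -213, -205 and -147 in Nr4a3. Of 32851 RefSeq windows of the same length, 20.8% held at least 1 core and 76 windows, or 0.231%, held 4 or more. Among the 6011 windows at least as rich in G and C as that of Nr4a3 (64.7%), the share with 4 or more was 0.532%. Of 23 other CREB-responsive genes, 15 had at least 1 window, and some had several. By the window with the most cores in each gene, 13 of the 15 held a core, and the highest number was 3. The 20.8% counts every window, so it is not a like measure for the 13 of 15. The full palindrome TGACGTCA, which contains a core on each strand, was in none of the 3 windows and in 1.79% of all windows. The NBRE sequence AAAGGTCA (1.51% of windows) and the CArG box of SRF (1.63%) were not found either, while the GC box GGGCGG (35.7%) occurred 3 times in Nr4a1, 5 times in Nr4a2 and 1 time in Nr4a3. A motif match describes these letters alone; GENCODE starts the Nr4a1 gene upstream of this window, at base 101254269 of chromosome 15, so other promoters of the gene lie outside it.

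The 3 genes were well expressed in every group. Levels are group means in CPM (a gene's count over the total count of its group, times 1000000), from the authors' mean estimated counts over 5 libraries, whose totals ran from 19910000 to 25000000 per group. Averaged over the 12 groups, Nr4a1 stood at 71.3 CPM, Nr4a2 at 66.9 CPM and Nr4a3 at 94.7 CPM. Only group means were analysed, so levels have no spread of their own and neighbours in their order are told apart only where a test below compares them. Between genes, levels are compared per kilobase of merged exons (3.509 kb for Nr4a1, 4.059 kb for Nr4a2 and 5.987 kb for Nr4a3). On that scale ventral Homecage hippocampus had Nr4a2 on top with 19.0 CPM per kb, before Nr4a3 with 12.8 and Nr4a1 with 10.97. Dorsal Homecage hippocampus had the reverse order of Nr4a1 and Nr4a2, with 15.6 CPM per kb for Nr4a1, 14.2 for Nr4a3 and 10.9 for Nr4a2. Markers matched the labelled tissue: the 6 neuron markers summed to between 5072 and 5756 CPM in every group, and the 4 ventral hippocampus markers found in all tables to between 79.4 and 91.6 CPM in dorsal against 251.5 to 271.5 CPM in ventral groups.

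Nr4a1, an early gene of neurons and also of blood and vessel cells, was higher after each treatment in each region. In whole hippocampus its level went from 37.7 CPM in Homecage to 70.8 CPM after Handling, 67.3 CPM after Restraint and 75.1 CPM after Swim. In dorsal hippocampus it went from 54.7 CPM to 109, 82.5 and 85.2 CPM after the same treatments, and in ventral hippocampus from 38.5 CPM to 78.4, 73.2 and 83.1 CPM. The lowest treated group, whole Restraint, thus lay above the highest Homecage group, which was dorsal. In bulk tissue, more cells with the transcript and more transcript per cell cannot be told apart.

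In the authors' deposited tables Nr4a1 rose in all 9 comparisons with Homecage, by 0.59 to 1.12 on the log2 scale. The deposited log2 fold change was 1.12 in ventral Swim (95% interval 0.96 to 1.28, adjusted p 6.38e-38), the most, and 0.59 in dorsal Restraint (0.40 to 0.78, adjusted p 9.3e-07), the least. Intervals here are approximate, derived from each deposited fold change and its p. Ordered by p, the authors' deposited tables place Nr4a1 at rank 3 of 13668 genes in whole Handling, rank 3 in whole Swim and rank 4 in ventral Swim, and no lower than rank 14, in dorsal Restraint.

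Nr4a2, the receptor known from dopamine neurons, passed the test in 2 of the 3 dorsal comparisons and in no other. Dorsal hippocampus went from 44.4 CPM in Homecage to 58.1 CPM after Handling, 56.6 CPM after Restraint and 57.6 CPM after Swim, so that all treated dorsal groups lay above their Homecage group. Whole hippocampus stood at 59.9 CPM in Homecage and at 74.0, 69.9 and 71.6 CPM after the same treatments. Ventral hippocampus stood at 77.0 CPM in Homecage and at 83.6, 71.6 and 78.2 CPM, on either side of its Homecage group.

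According to the authors' deposited tables Nr4a2 rose in dorsal Restraint by 0.35 (0.17 to 0.53, adjusted p 0.036) and in dorsal Swim by 0.38 (0.22 to 0.54, adjusted p 0.00191). The dorsal Handling value of 0.37 (0.18 to 0.55) missed the threshold with an adjusted p of 0.0661 in the authors' deposited table, and passed with 0.0295 under total-count scaling. The dorsal Restraint call was lost once the part of the fold change that follows a transcript's GC content had been subtracted (0.33, adjusted p 0.0936). None of the 3 whole comparisons passed in the authors' deposited tables, with values of 0.21 to 0.29, nor did the ventral values of 0.13 after Handling, -0.08 after Restraint and 0.03 after Swim. The ventral intervals reach up to 0.30, 0.10 and 0.21.

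Nr4a3 (Nor1) passed in all 3 ventral comparisons and in whole Handling. Whole hippocampus stood at 87.8 CPM in Homecage and at 108, 96.4 and 96.4 CPM after Handling, Restraint and Swim. Dorsal hippocampus stood at 85.3 CPM in Homecage and at 106, 92.1 and 92.4 CPM after treatment, and ventral hippocampus at 76.3 CPM and at 101, 96.8 and 98.0 CPM. The Handling group was the highest of its region in all 3 regions.

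In the authors' deposited tables Nr4a3 rose in ventral hippocampus after Handling by 0.39 (0.26 to 0.53, adjusted p 1.04e-05), after Restraint by 0.35 (0.22 to 0.47, adjusted p 1.12e-05) and after Swim by 0.36 (0.24 to 0.49, adjusted p 6.15e-06). It also rose in whole Handling, by 0.30 with an adjusted p of 0.0204 in the authors' deposited table. The dorsal Handling value was 0.31 (0.14 to 0.47), with an adjusted p of 0.142 in the authors' deposited table. The other dorsal and whole values lay between 0.11 and 0.14 and did not pass.

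**Figure D1:**
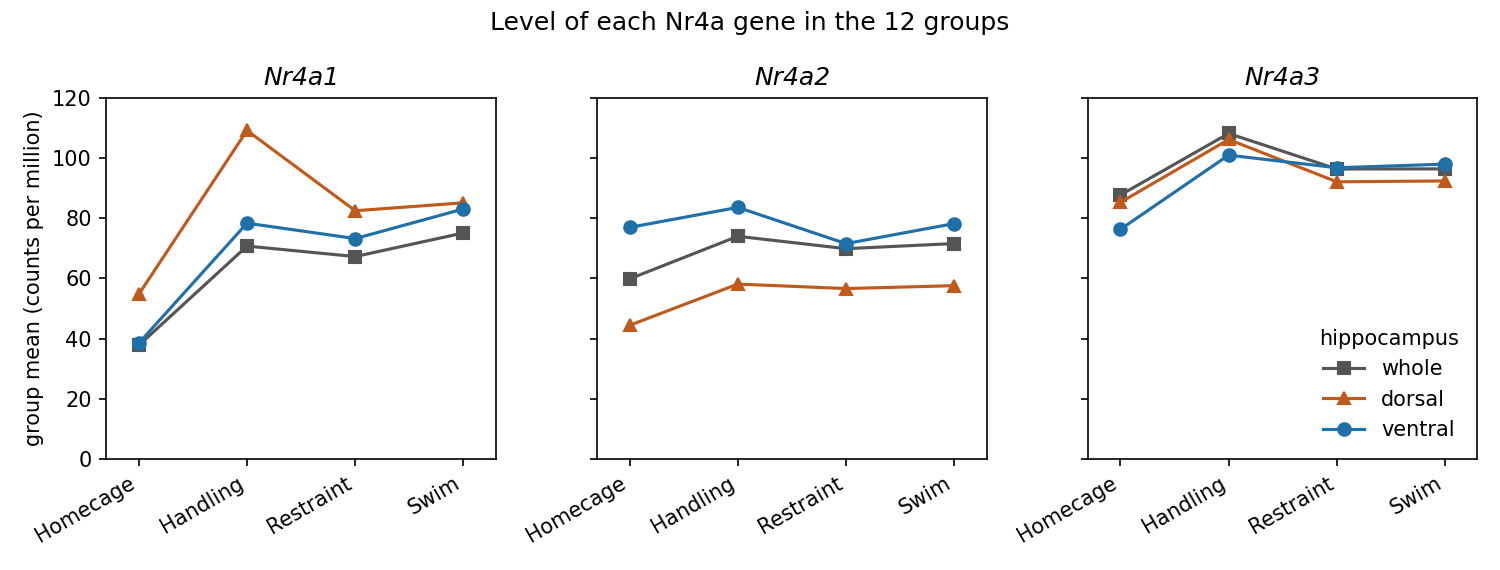
Group mean of each Nr4a gene in CPM (vertical axis) in Homecage and after Handling, Restraint and Swim (horizontal axis), with squares for whole, triangles for dorsal and circles for ventral hippocampus; each point is the authors' mean over 5 libraries, without an error. Nr4a1 lies at 37.7 to 54.7 CPM in Homecage and at 67.3 to 109 CPM after treatment, while the ventral line of Nr4a2 starts at 77.0 CPM and stays between 71.6 and 83.6 CPM.

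**Figure D2:**
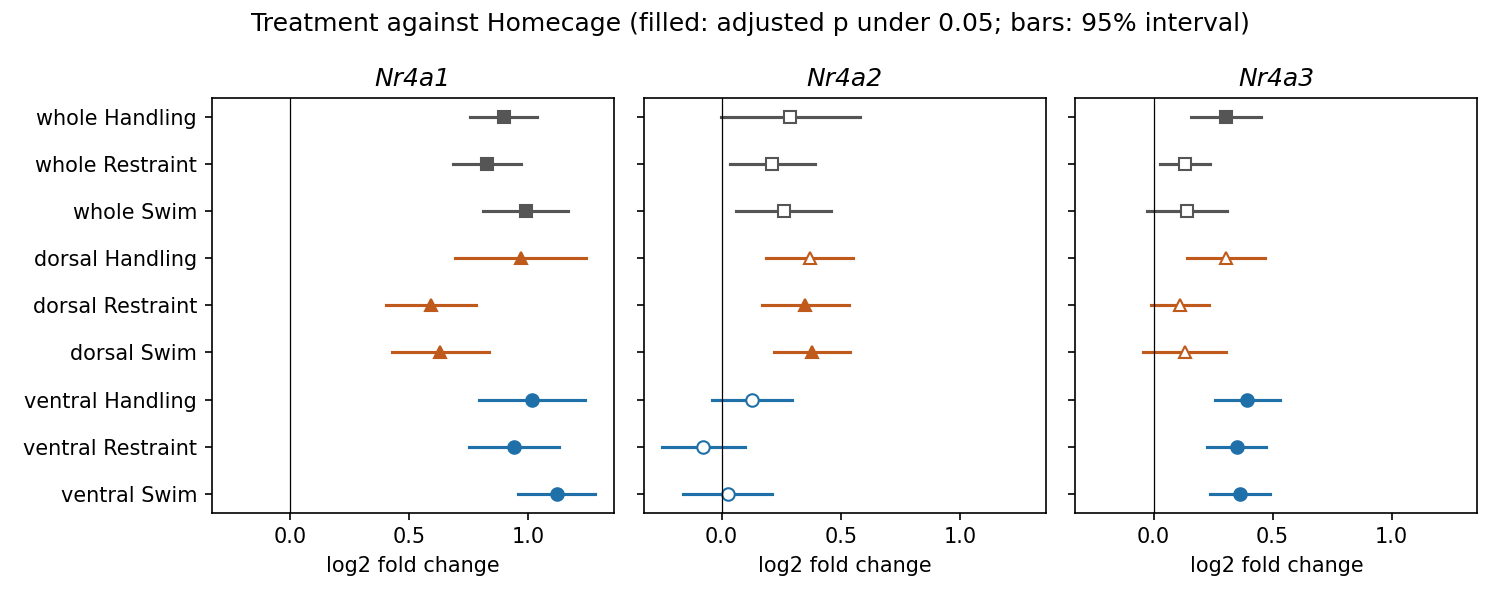
Log2 fold change against Homecage (horizontal axis) of each Nr4a gene in the 9 treatment comparisons (vertical axis), with bars for the 95% interval derived from the authors' p and filled symbols for an adjusted p under 0.05. All 9 symbols are filled for Nr4a1, 2 dorsal ones for Nr4a2, and 4, of which 3 are ventral, for Nr4a3.

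Over all genes, the authors' deposited tables call 0.395% in whole Handling, 0.541% in whole Restraint and 0.395% in whole Swim at an adjusted p of 0.05, and 0.125%, 0.616% and 0.447% in the same dorsal comparisons. The ventral tables call 0.856% after Handling, 2.39% after Restraint and 6.94% after Swim. Against that background 2 of the 3 Nr4a genes were called in whole Handling, dorsal Restraint, dorsal Swim and the 3 ventral comparisons, and 1 of 3 in whole Restraint, whole Swim and dorsal Handling. Each comparison of a region shares its Homecage libraries with the other 2, so the calls of 1 gene within a region are not independent of each other.

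In Homecage mice the 3 genes were not spread alike between dorsal and ventral hippocampus. The authors' deposited table gives Nr4a2 as higher in ventral hippocampus by 0.75 on the log2 scale (0.58 to 0.91, adjusted p 2.45e-18), from 44.4 CPM in dorsal to 77.0 CPM in ventral groups. Nr4a1 was lower there by -0.56 (-0.80 to -0.32, adjusted p 2.77e-05), with 54.7 against 38.5 CPM, as was Nr4a3 by -0.20 (-0.32 to -0.07, adjusted p 0.00683), with 85.3 against 76.3 CPM, both from the authors' deposited table. That table calls 38.4% of all genes, so a call in it sets no gene apart.

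Some markers of neighbouring tissue were, like Nr4a2, higher in ventral than in dorsal Homecage hippocampus. Of the 7 markers of claustrum and layer 6b, cells that are known to express Nr4a2, 6 were measured and 5 were higher in ventral Homecage hippocampus, with a median of 1.74 and with Oprk1, the kappa opioid receptor gene, at 2.32 in the authors' deposited table. Over the 4 of them found in all tables, the summed level was 49.98 to 54.1 CPM in dorsal, 59.4 to 66.5 CPM in whole and 72.7 to 82.8 CPM in ventral groups. Neocortex layer markers (6 of 6 measured, 3 higher and 1 lower in ventral) summed to 293 to 334 CPM in dorsal and 345 to 408 CPM in ventral groups. In whole groups they summed to 309.5 to 325.2 CPM, inside the dorsal range. The part of either in the level of Nr4a2 was not tested. Dentate granule cell markers went the other way, with 5 of 6 lower in ventral Homecage and sums of 604.5 to 655.2 CPM in dorsal against 267 to 306 CPM in ventral groups, and their part in the levels of Nr4a1 and Nr4a3 was not tested.

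The response itself was then compared between regions, as the ventral response minus the dorsal one on the log2 scale, with Benjamini-Hochberg adjustment over all genes measured in both. After Swim the Nr4a1 response was larger in ventral hippocampus by 0.49 (0.23 to 0.75, adjusted p 0.00852 from the derived-error test), the log2 fold changes in the authors' deposited tables being 0.63 and 1.12. The Nr4a2 response was smaller in ventral hippocampus by -0.35 after Swim (-0.60 to -0.11, adjusted p 0.0483) and by -0.43 after Restraint (-0.68 to -0.17, adjusted p 0.0497). Its Swim difference also missed the threshold under total-count scaling (adjusted p 0.0539). The Nr4a1 difference after Restraint, 0.35 (0.08 to 0.62), and the Nr4a3 differences after Restraint and Swim, 0.24 (0.06 to 0.41) and 0.23 (0.02 to 0.45), pointed to the ventral side without passing (adjusted p 0.184, 0.152 and 0.148). No Nr4a gene passed after Handling, where the differences were 0.05 (-0.30 to 0.40) for Nr4a1, -0.24 (-0.49 to 0.01) for Nr4a2 and 0.09 (-0.13 to 0.30) for Nr4a3. The same test called 0.0889% of all genes after Handling, 1.98% after Restraint and 10.2% after Swim.

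None of the 3 regional calls held once the GC trend was subtracted from each table: the Swim differences became 0.31 for Nr4a1 (adjusted p 0.598) and -0.29 for Nr4a2 (adjusted p 0.599), and the Restraint difference of Nr4a2 became -0.40 (adjusted p 0.297). Over all genes that step took the Swim differences from 1383 to 27 calls and the Restraint differences from 267 to 5, while the treatment calls of Nr4a1 and Nr4a3 against Homecage were kept in every table.

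Group means of Nr4a1 lay closer together between regions after Swim and Restraint than in Homecage, and those of Nr4a2 after all 3 treatments. For Nr4a1, ventral and dorsal groups stood at 83.1 and 85.2 CPM after Swim and at 73.2 and 82.5 CPM after Restraint, against 38.5 and 54.7 CPM in Homecage, but at 78.4 and 109 CPM after Handling. For Nr4a2 the gap between ventral and dorsal groups was 77.0 against 44.4 CPM in Homecage, 83.6 against 58.1 CPM after Handling, 71.6 against 56.6 CPM after Restraint and 78.2 against 57.6 CPM after Swim. Homecage levels enter both the regional and the treatment comparison, so a lower starting level and a larger response in the same region share their data. In ventral Restraint, where Nr4a2 was at its lowest ventral level, neocortex layer markers were at 345 CPM against 408 CPM in ventral Homecage, and claustrum and layer 6b markers at 72.7 against 80.1 CPM; their part in the Nr4a2 values was not tested.

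**Figure D3:**
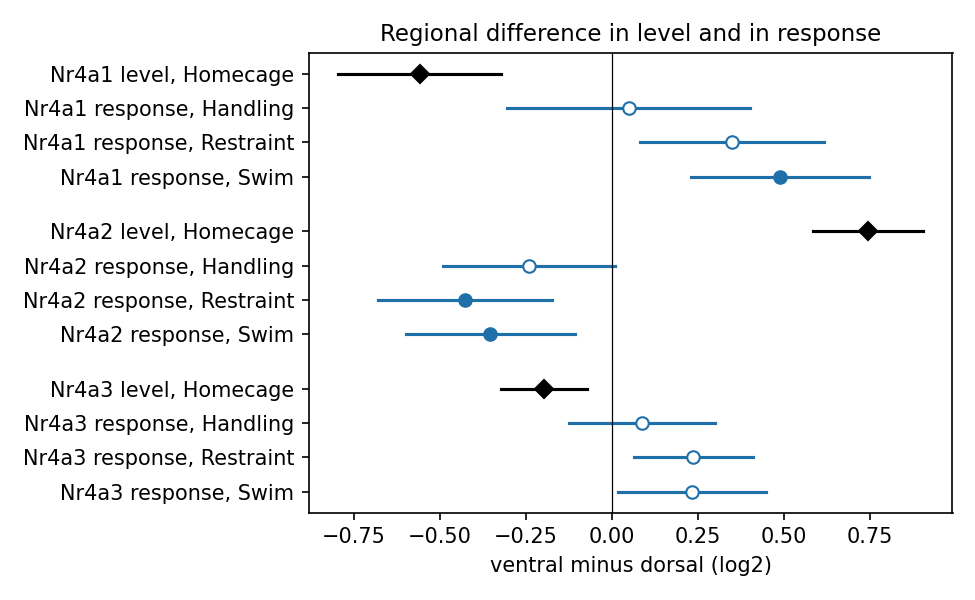
Ventral minus dorsal difference on the log2 scale (horizontal axis) for each Nr4a gene, with black diamonds for the level in Homecage mice from the authors' table and circles for the response to each treatment; bars are 95% intervals and filled circles mark an adjusted p under 0.05. For Nr4a1 the Homecage level lies at -0.56 and the Swim response at 0.49, and for Nr4a2 they lie at 0.75 and -0.35; after the GC trend was subtracted the 3 filled circles became 0.31 (Nr4a1, Swim), -0.29 (Nr4a2, Swim) and -0.40 (Nr4a2, Restraint), and none passed.

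Treatments were compared with each other within each region, 9 differences per gene, and no Nr4a gene passed in any. The Nr4a1 difference between Restraint and Handling in dorsal hippocampus was -0.38 (-0.71 to -0.04, unadjusted p 0.0268, adjusted p 1.0 over all genes), and that between Swim and Handling was -0.34 (-0.68 to 0.00). In whole and ventral hippocampus the Nr4a1 differences lay between -0.08 and 0.18. The Nr4a3 differences of Restraint and Swim from Handling were all below 0, from -0.19 in dorsal Restraint to -0.03 in ventral Swim. Because both responses share Homecage, the errors are upper bounds, and removing a shared Homecage term gave no call either. Over all genes the test called 0.0294%, 0.00734% and 0% of genes in whole hippocampus (Restraint minus Handling, Swim minus Handling, Swim minus Restraint), 0.0147%, 0.0221% and 0% in dorsal, and 0.139%, 0.117% and 0.0073% in ventral hippocampus.

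The make-up of the subfamily differed between Homecage and treated groups. Per kilobase, Nr4a1 held 26.8% of the summed Nr4a level in whole Homecage and 35.7% to 38.8% after treatment. In dorsal hippocampus its share went from 38.2% to between 44.5% and 49.2%, and in ventral hippocampus from 25.7% to between 37.3% and 39.9%. The share of Nr4a2 in ventral hippocampus went from 44.4% in Homecage to between 32.2% and 34.4% after treatment, while its own level there was 77.0 CPM in Homecage and 71.6 to 83.6 CPM after treatment. In dorsal hippocampus the share of Nr4a2 was 26.8% in Homecage, 22.7% after Handling, 26.4% after Restraint and 26.3% after Swim. These shares are values of group means, with no error.

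Across the nuclear receptor superfamily, the other genes that passed were counted beside the share called over all genes. Of 46 other nuclear receptor genes, 32 or 33 were measured per comparison. In 8 of the 9 treatment comparisons none passed, where 0.125% to 2.39% of all genes did. In ventral Swim, where 2 of 33 did, the share over all genes was 6.94%, so these counts do not set the list apart. In ventral Swim 2 fell in the authors' deposited table: Rora, a retinoid-related orphan receptor of the circadian clock, by 0.33 (adjusted p 0.0094) and Pgr, the progesterone receptor gene, by 0.30 (adjusted p 0.0491); with the GC trend subtracted, 1 receptor was called. Rora is also in the list of thalamus markers used here. Of 7 thalamus markers measured in ventral Swim, 2 fell, and the median, which counts Rora, was -0.33. Over the 6 found in all tables, the summed level was 128.0 CPM there against 146.8 CPM in ventral Homecage. The part of thalamus tissue in the fall of Rora was not tested. The medians of the other nuclear receptors ran from -0.02 to 0.04, beside -0.01 to 0.01 for all genes. Nr4a1 had the highest log2 fold change of the superfamily in all 9 comparisons, and Nr4a3 came next in whole Handling and in the 3 ventral comparisons. Elsewhere Nr4a3 ranked lower, at 5 in whole Restraint, 8 in whole Swim, 13 in dorsal Restraint and 11 in dorsal Swim. In dorsal Swim Pparg, a lipid-sensing receptor gene, stood above Nr4a2 with 0.46 in the authors' deposited table, but did not pass (adjusted p 0.504). The highest other receptor also stood above Nr4a2, without passing, in whole Swim (0.36 against 0.26) and dorsal Restraint (0.354 against 0.351).

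**Figure D4:**
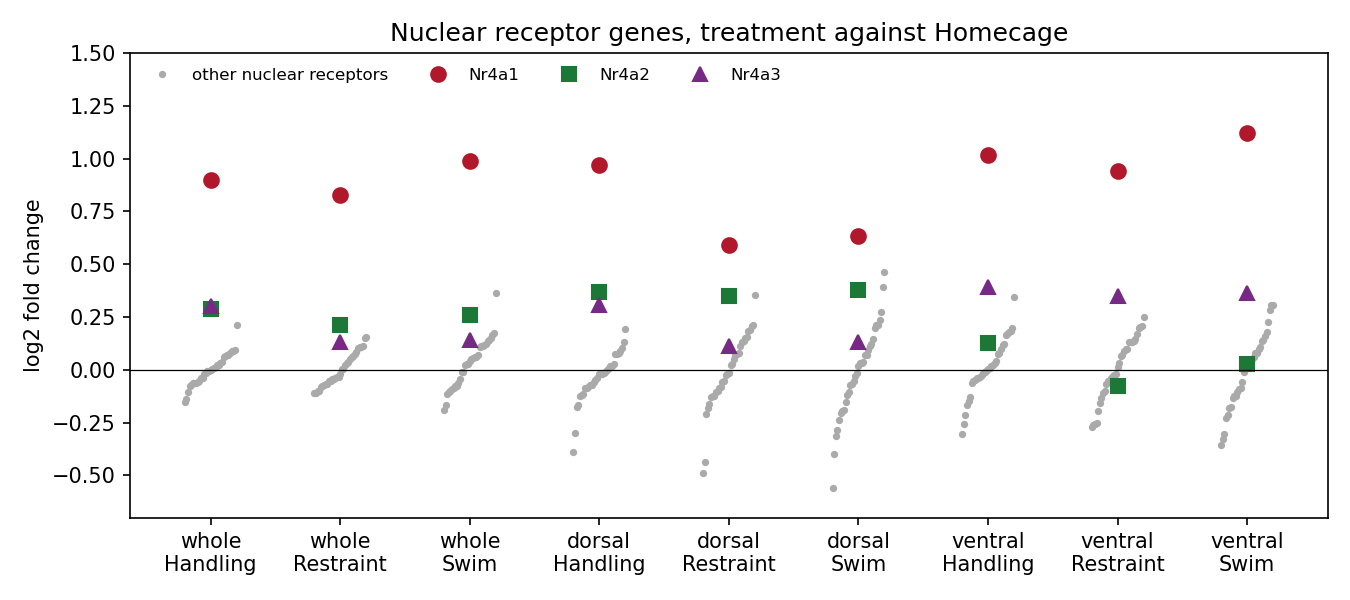
Log2 fold change against Homecage (vertical axis) of nuclear receptor genes in the 9 treatment comparisons (horizontal axis), with circles for Nr4a1, squares for Nr4a2, triangles for Nr4a3 and grey points for the 32 or 33 other receptors measured. The circle lies on top in each comparison, from 0.59 to 1.12, while the squares fall among the grey points in the 3 ventral comparisons. In whole Swim, dorsal Restraint and dorsal Swim the highest grey point also lies above the square.

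Upstream of the Nr4a genes, transcripts of CREB, SRF and MEF2 and of their kinases and coactivators passed in ventral Restraint and ventral Swim only. All 20 listed genes were measured. None passed in whole or dorsal hippocampus or in ventral Handling, where 0.125% to 0.856% of all genes were called. In ventral Restraint 1 of 20 passed beside 2.39% of all genes, and in ventral Swim 4 of 20 beside 6.94%. In ventral Swim 3 rose in the authors' deposited table, Srf, the serum response factor, by 0.28, Crtc1 and Crtc3, coactivators of CREB, by 0.21 and 0.20, and 1 fell. That gene was Mef2c, an activity-regulated neuronal factor, at -0.36 there and at -0.40 in ventral Restraint in the authors' deposited table. With the GC trend subtracted, 0 of the 20 passed in ventral Swim. Phosphorylation, through which CREB is known to be switched on, is not seen in RNA.

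Other CREB-responsive genes share inputs with the Nr4a subfamily, and some of them rose in every comparison. Of the 23 listed, 11, 12 and 11 rose in the authors' deposited tables in whole hippocampus after Handling, Restraint and Swim, 8, 8 and 7 in dorsal and 12, 14 and 16 in ventral hippocampus, and none fell. Over all genes, 0.395%, 0.541% and 0.395% were called in the same whole comparisons. The shares were 0.125%, 0.616% and 0.447% in dorsal and 0.856%, 2.39% and 6.94% in ventral hippocampus. Medians ran from 0.22 to 0.59, beside at most 0.01 for all genes. Nr4a1 is 1 of the genes called in all 9 comparisons, as are Fos and Fosb, AP-1 subunits, Egr1 and Egr2, zinc finger factors, Dusp1, a MAP kinase phosphatase, and Sik1, a kinase that restrains CREB coactivators. The log2 fold change of Nr4a1, 0.59 to 1.12, was close in range to that of Egr1, 0.61 to 1.07, and of Sik1, 0.71 to 1.18, and below the 1.35 to 2.06 of Fos in the authors' deposited tables. Several listed genes passed in no comparison, Bdnf, the neurotrophin gene, among them.

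After Swim and Restraint the response of several of these genes was also larger in ventral hippocampus. After Swim 10 of 23 had a larger ventral response by the same test and none a smaller one, where 10.2% of all genes were called. The median difference was 0.40 beside -0.01 for all genes. After Restraint 6 of 23 had a larger ventral response, with a median of 0.31, where 1.98% of all genes were called. After Handling none of the 23 passed, with a median of 0.11. With the GC trend subtracted, 3 of 23 passed after Swim (median 0.20) and 1 of 23 after Restraint (median 0.16), an alternative added after the data were seen. Over all genes that step left 27 calls after Swim and 5 after Restraint. Junb, an AP-1 subunit, had the widest gap after Swim, 1.40 (adjusted p 0.00109), with 0.06 in dorsal and 1.46 in ventral hippocampus in the authors' deposited tables. The differences of Nr4a1 and Nr4a3 after Swim, 0.49 and 0.23, were above 0 and that of Nr4a2, -0.35, below.

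**Figure D5:**
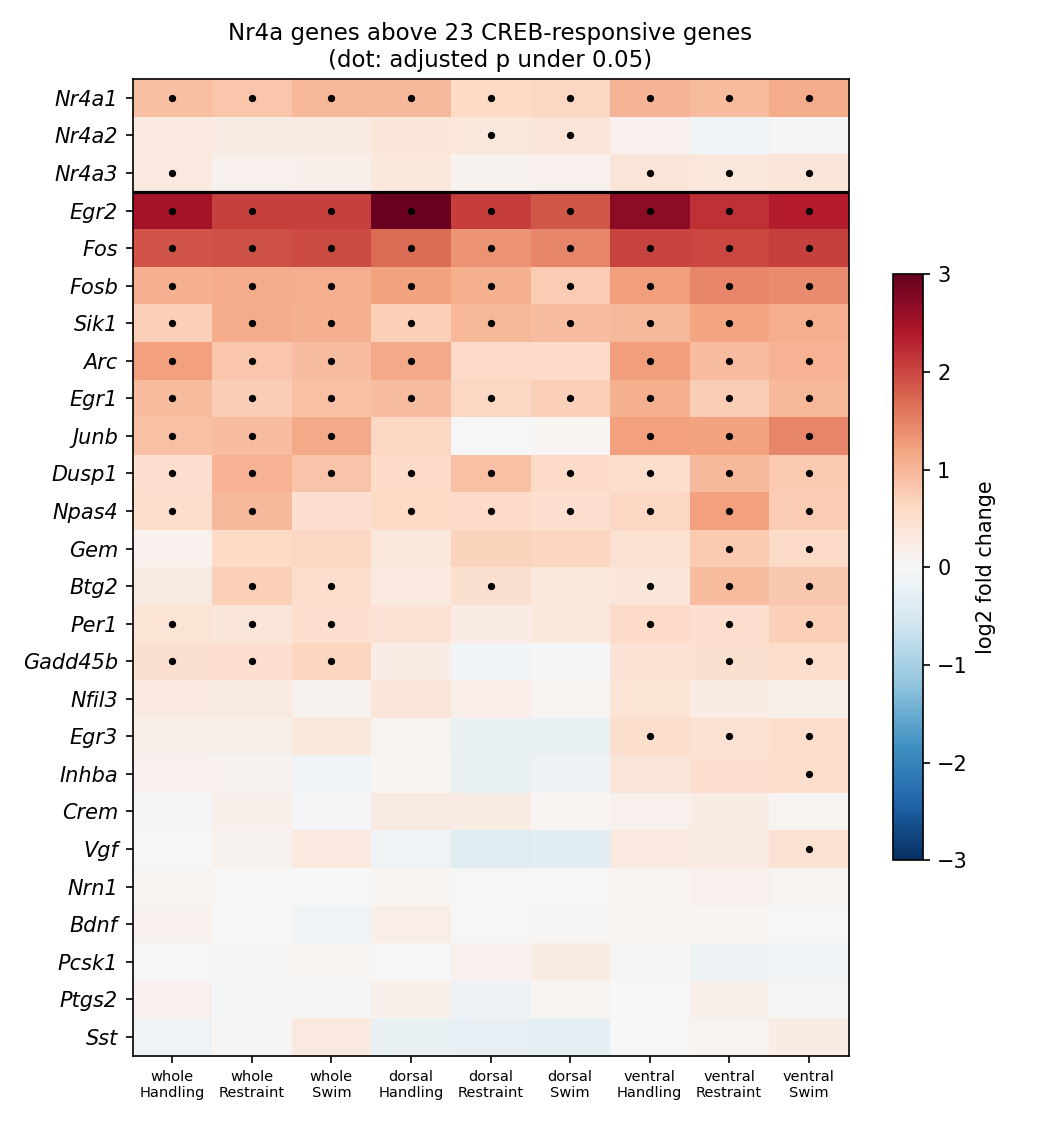
Log2 fold change against Homecage (colour, from blue below 0 to red above 0) of the 3 Nr4a genes and, under the line, of 23 CREB-responsive genes ordered by their mean (rows) in the 9 treatment comparisons (columns); dots mark an adjusted p under 0.05 in the authors' deposited tables. Nr4a1 has a dot in all 9 columns, as have Egr2, Fos, Fosb, Sik1, Egr1 and Dusp1, while Nr4a2 has 2 dots, both in dorsal columns.

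Partners and corepressors of the receptors were listed as 14 genes (RXR receptors, corepressor subunits and their deacetylases), all measured. None passed after any treatment in whole or dorsal hippocampus, where 0.125% to 0.616% of all genes were called. In ventral Swim 1 of 14 passed, beside 6.94% of all genes. Rxrg, an RXR gene, was higher in ventral than in dorsal Homecage hippocampus by 2.75 and Rxra by 0.55 in the authors' deposited table.

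On the target side, endoplasmic reticulum chaperone genes, which have been described as Nr4a targets in mouse hippocampus, had medians slightly above 0. Of 16 genes 4 rose in dorsal Restraint, with Xbp1, a factor of the unfolded protein response, at 0.34, Pdia4, a disulfide isomerase, at 0.37, Hspa5, the chaperone BiP, at 0.33 and its partner Dnajc3 at 0.29 in the authors' deposited table. In dorsal Handling Xbp1 alone rose, by 0.36, in ventral Handling Manf by 0.29 and in ventral Swim Herpud1 by 0.20, from the authors' deposited tables. The other 5 treatment comparisons had none. Over all genes, 0.616% were called in dorsal Restraint, 0.125% in dorsal Handling, 0.856% in ventral Handling and 6.94% in ventral Swim. The 1 of 16 in ventral Swim is near that share and does not set the list apart. With the GC trend subtracted, 2 passed in dorsal Restraint and 0 in ventral Swim. Choroid plexus markers rose in some of these groups. In dorsal Restraint 4 of the 8 measured rose (median 2.69, summed level 1368 CPM against 82.2 CPM in dorsal Homecage). In ventral Handling 12 of 12 rose (median 3.60, 1302 against 59.3 CPM). None passed in dorsal Handling (137.5 against 82.2 CPM) or in ventral Swim (76.9 against 59.3 CPM). Their part in the chaperone values was not tested. Chaperone medians were 0.06 to 0.18 in all 9, beside at most 0.01 for all genes. Of 7 genes that Nr4a2 is known to drive in dopamine neurons, 4 or 5 were measured and none passed after any treatment.

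By the likeness of their levels over the 12 groups, the genes nearest to Nr4a1 were other early genes. Pearson's r on log2 CPM was 0.955 for Egr1, 0.944 for Arc, a synaptic effector, 0.935 for Junb, 0.910 for Dusp5, a nuclear phosphatase of ERK, and 0.910 for Egr2. Nearest to Nr4a3 were Egr2 at 0.904 and Gpr3, a constitutively active receptor that raises cAMP, at 0.900, before Rasl11a at 0.850, Ccdc137 at 0.846 and Fam46a at 0.837. Nr4a2 was nearest to other genes, Cyp2j9 at 0.977, Fam114a1 at 0.964, Ypel2 at 0.949 and Amot at 0.942. Among themselves, Nr4a1 and Nr4a3 had an r of 0.770, Nr4a2 and Nr4a3 0.257, and Nr4a1 and Nr4a2 0.033. With the mean of each region subtracted these became 0.904, 0.565 and 0.697. The 12 points are group means that share region, and the values describe these groups only.

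Endothelial cell and microglia markers, cell types in which Nr4a1 is also known, stood at 253 to 309 CPM and at 243 to 293 CPM over all groups (12 of 12 and 8 of 8 markers measured). Choroid plexus markers were at 1368 CPM in dorsal Restraint and 1302 CPM in ventral Handling against 50.4 to 137.5 CPM in the other groups, over 6 of 12 markers found in all tables, and their part in the Nr4a values of those 2 groups was not tested. Blood cell markers (5 of 5 measured) ranged from 156 CPM in ventral Swim to 382 CPM in whole Swim. Their part in the Nr4a values was not tested.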

How the data were processed

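The deposited data are 10 tables, each comparing 2 groups gene by gene. Per the file headers, they give the mean of each group, a fold change (ratio), its log2 value, a p-value and an adjusted p. The deposited means were taken as unscaled estimated counts averaged over the libraries of a group. Each Homecage group has the same means in all its tables whatever it is compared with. The means were therefore not scaled anew for each comparison, but this cannot tell whether all libraries were scaled together once. The log2 fold change rests on the authors' own scaling, and no source used here gives the test, the counting program or the annotation. Bowtie 0.12.2 and mm8 are named, without a role, in the submitters' processing notes. Libraries were poly(A)-enriched, per the labels' protocols. Counts of single libraries were not analysed, so the tests planned for them were replaced by the authors' own, and precision comes from the deposited p.

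Tables hold 13610 to 13784 genes after 144 to 148 repeated entries each were dropped. Calls are the authors' adjusted p at 0.05. A standard error was derived as the log2 fold change over the normal quantile of its p. Intervals of 95% and differences between regions or treatments use it, with a normal distribution and Benjamini-Hochberg adjustment over all genes. The calculation was run on simulated data with independent normal errors, as the test itself assumes. Those data held no pairing of regions and no GC trend, so they cannot show how the test behaves with either. CPM uses the 13393 genes common to all tables. Transcript GC content and exon length came from GENCODE M21 (GRCm38), promoter windows from RefSeq. The files use no coordinates. GC correction subtracted a lowess trend (fraction 0.3, statsmodels 0.14.6, scipy 1.17.1, Python 3.11.15).

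The Nr4a genes, gene lists and alternatives were chosen with earlier results of these data known, and the threshold of 4 CRE cores after the windows were seen. Up to 4 called genes per list and table, by lowest adjusted p, and for each Nr4a gene the 5 genes nearest in level over the 12 groups (log2 of CPM plus 0.5, mean of at least 1 CPM) were named; Oprk1, Pparg, Bdnf and genes given for comparison in range or for a regional gap (Egr1, Sik1, Fos, Junb) or for recurring in all comparisons were chosen after their values were seen. Some genes that this rule names are not reported here.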

Additional observations from a re-analysis of the deposited data

Results flagged for a closer look

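The response of Nr4a1 to Swim differed between regions, with a ventral minus dorsal value of 0.49 on the log2 scale, since the test of the difference itself passed (adjusted p 0.00852). The response of Nr4a2 differed for the same reason after Swim, by -0.35 (adjusted p 0.0483), and after Restraint, by -0.43 (adjusted p 0.0497). All 3 differences are approximate, since libraries of both regions were taken as independent. With the GC trend subtracted they were 0.31, -0.29 and -0.40, and none passed (adjusted p 0.598, 0.599 and 0.297). Under total-count scaling the Swim difference of Nr4a2 was -0.35 with an adjusted p of 0.0539.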

How the results depend on the processing

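The calls of Nr4a1 and Nr4a3 against Homecage kept their direction and side of the threshold under total-count scaling, the GC correction and the exclusion of genes under 1 CPM; at a threshold of 0.01, Nr4a3 in whole Handling was lost (0.30, adjusted p 0.0204), leaving 1 gene called. Total-count scaling added Nr4a2 in dorsal Handling (0.39, adjusted p 0.0295; 2 genes called), weakened its Swim difference between regions (-0.35, adjusted p 0.0539) and turned its Swim minus Handling value in dorsal hippocampus to -0.0135. After the GC correction Nr4a2 in dorsal Restraint was 0.33 (adjusted p 0.0936; 1 gene called), the regional differences were -0.40 for Nr4a2 after Restraint, 0.31 for Nr4a1 and -0.29 for Nr4a2 after Swim, none of which passed (adjusted p 0.297, 0.598 and 0.599), and values near 0 turned to -0.0419 (Nr4a1, Handling between regions) and -0.009 (Nr4a2, dorsal Swim minus Handling). At 0.01, Nr4a2 was also lost in dorsal Restraint (0.35; 1 gene called) and in the regional differences after Restraint (-0.43) and Swim (-0.35). The cause was not tested. With each region's mean subtracted, 1 of the 5 genes nearest to Nr4a1, 1 of those nearest to Nr4a2 and 0 of those nearest to Nr4a3 remained among the nearest 5. No paired analysis was possible because the tables hold group means, and leaving out a replicate was not run for the same reason; tests on counts per library were not run.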
